A study of Mus musculus with 2 samples.

Results

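Macrophages and Langerhans cells were followed in newborn tooth and skin through 10 genes, chosen by the name printed for them on the array. They were Ptprc, Csf1r, Tyrobp, Cd68, Mrc1, Cd163, Cd207, Cd74, Csf1 and Il34, 10 of the 24323 named genes measured. Total RNA was taken from tooth and from skin, both of wild-type mice at postnatal day 0 per the labels, whereas the study's methods named a slightly later stage. Each tissue was hybridised to 1 Agilent single-colour array, and both arrays lay on the same slide. The labels gave no strain, sex or number of animals for either array, nor the site the skin was taken from. Because each tissue had 1 array, the spread between animals is unknown, no difference was tested, and no value has a replicate check.

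Tissue macrophages and Langerhans cells, the macrophage-like cells of the epidermis, are seeded before birth and depend on the receptor tyrosine kinase Csf1r. The receptor has a pair of ligands, Csf1 and Il34. Csf1 is made by many mesenchymal cells and is needed for osteoclasts and for tooth eruption, whereas Il34 is made mainly by keratinocytes and neurons and is needed for Langerhans cells. In the mouse, Langerhans cell precursors enter the epidermis before birth and acquire the lectin langerin (Cd207) and major histocompatibility complex (MHC) class II during the days that follow birth. Osteoclasts arise from the same myeloid lineage and share Csf1r, Tyrobp and Cd68 with macrophages. In RNA from whole tissue, fewer cells of a type and less RNA per cell cannot be told apart.

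The 10 genes were read by 16 probes of 60 bases on 25 spots of each array, none of them saturated. Of these genes 7 had 1 probe only. Probe sequences are shown for Tyrobp, Ptprc and Cd163, each read by 1 probe, so that the bases behind each reading can be seen. Each sequence holds an open reading frame, but its place in the coding sequence was not checked against an annotation. In the Tyrobp probe (mm9 chr7:31200651-31202378, plus strand, across an intron) the capitals mark a tyrosine codon, 2 further codons and a leucine codon in an open frame. The activation motif of this adaptor opens with that pattern. In the Ptprc probe (chr1:139961083-139961142, minus strand) the capitals mark a stop codon ending an open frame. In the Cd163 probe (chr6:124270436-124270495, plus strand) nothing is marked.
Tyrobp: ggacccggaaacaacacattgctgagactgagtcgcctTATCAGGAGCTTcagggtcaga
Ptprc: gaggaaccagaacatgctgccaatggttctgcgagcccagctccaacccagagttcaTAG
Cd163: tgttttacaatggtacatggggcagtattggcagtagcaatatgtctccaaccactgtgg

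Values are log2 intensities relative to the 75th percentile of each array (428 intensity units in tooth, 276 in skin), and a difference is skin minus tooth. The error given with a difference is 1 SD propagated from the extraction software's own error estimate for each spot, and it leaves out all variation between animals and preparations. Whether a probe was well above background was decided by the same software. A gene is called detected where its brightest probe passed that call on at least 1 array, and dim where that probe did not pass. Of the 10 genes, 7 passed on both arrays, Ptprc passed on the tooth array alone, and Cd163 and Cd207 were dim on both. The enamel and dentin genes Amelx, Ambn, Dspp and Dmp1 were detected on the tooth array alone. The epidermal genes Krt1, Krt10 and Lor were 337-fold to 979-fold higher in skin, and Flg2 was detected on the skin array alone, so each array showed the defining genes of its labelled tissue.

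Il34 and Cd74 were higher in skin by more than 2-fold, Cd68 was higher in tooth by more than 2-fold, and the other 5 detected genes lay within 2-fold. Of the 8 detected members, 2 thus passed 2-fold toward skin and 1 toward tooth, and of all 17409 detected named genes 14.2% passed toward skin and 15.5% toward tooth. The median difference was -0.22 over the 8 members and -0.04 over all 17409 genes.

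**Figure D1:**
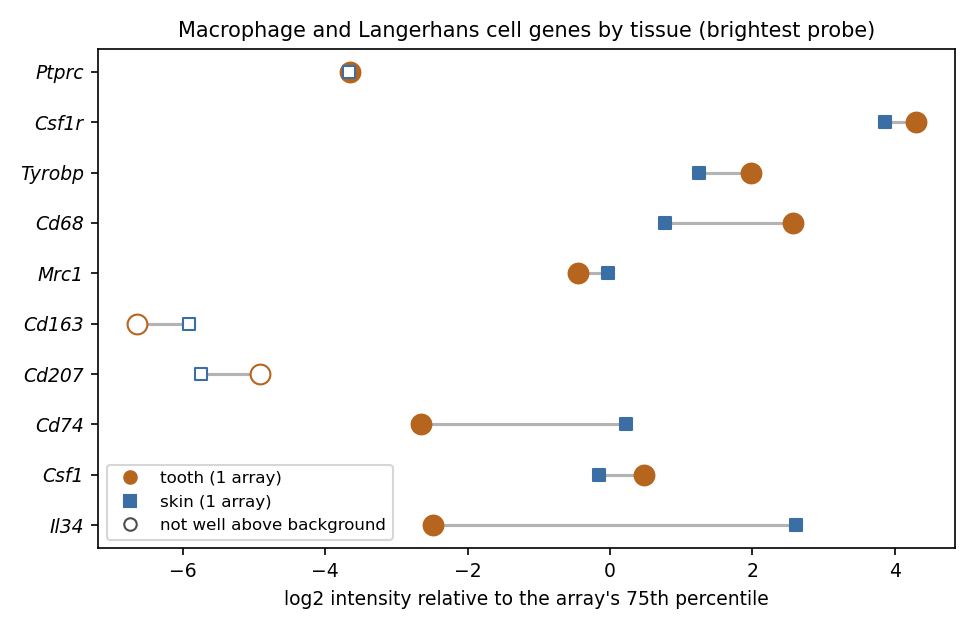
The log2 intensity of each gene's brightest probe, relative to the 75th percentile of the array, is plotted for the tooth array (circles) and the skin array (squares), and open symbols are dim values. Il34 and Cd74 lie furthest to the right in skin relative to tooth, Cd68 is higher in tooth, and Cd163 and Cd207 are open on both arrays. Levels of different genes come from different probes and are not comparable with each other.

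The ligands of Csf1r lay on opposite sides of 0. Il34 (mm9 chr8:113265835-113265894, minus strand) had an intensity of 76.7 in tooth and 1694 in skin, or -2.48 and 2.62 on the scaled log2 scale. Its difference of 5.10 ± 0.22 was a 34.2-fold higher value in skin, and 338 of the 17409 genes (1.94%) had a larger difference toward skin. Its tooth value was well above background, so the fold is a measured value and not a bound.

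Csf1 pointed the other way. Its brightest probe (chr3:107544333-107544392, minus strand), which reads transcript variant 1, was spotted 10 times on each array. The spots ranged from 551 to 656 intensity units in tooth and from 213 to 294 in skin. After scaling they ranged from 0.37 to 0.62 in tooth and from -0.37 to 0.09 in skin, so the spots of the arrays did not overlap. The spot SD was 0.09 in tooth and 0.14 in skin (log2, n = 10 spots), which is technical scatter within 1 array. The mean difference was -0.63 ± 0.21, a 1.54-fold higher value in tooth. The probes for transcript variant 3 gave -0.79 ± 0.32 and -1.09 ± 0.36. They share 31 bases and are not independent readings. The remaining Csf1 probe was dim on both arrays. The difference of Il34 exceeded that of Csf1 by 5.72 ± 0.30, and this gap does not depend on a shift of a whole array.

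The receptor and its adaptor partner both leaned toward tooth, within 2-fold. Csf1r was at 8413 intensity units in tooth and 4028 in skin by its brightest probe (chr18:61290725-61290784, plus strand). On the scaled log2 scale these values were 4.30 and 3.87, a difference of -0.43 ± 0.20. Its other probes were far dimmer, so the level of Csf1r rests on 1 probe. The first read 497 intensity units in tooth and 287 in skin, with a difference of -0.16 ± 0.21. The second read 217 and 76.6, with a difference of -0.87 ± 0.23. All 3 probes were thus lower in skin, but the smallest difference was within its error. Tyrobp (DAP12), which passes signals from receptors such as Trem2 to the kinase Syk, was at 1690 intensity units in tooth and 658 in skin. Scaled, these values were 1.98 and 1.25, with a difference of -0.73 ± 0.20, or 1.66-fold higher in tooth. Part of the gap in raw intensity of each gene was shared by the whole array, since the 75th percentile itself was 1.55-fold higher on the tooth array.

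**Figure D2:**
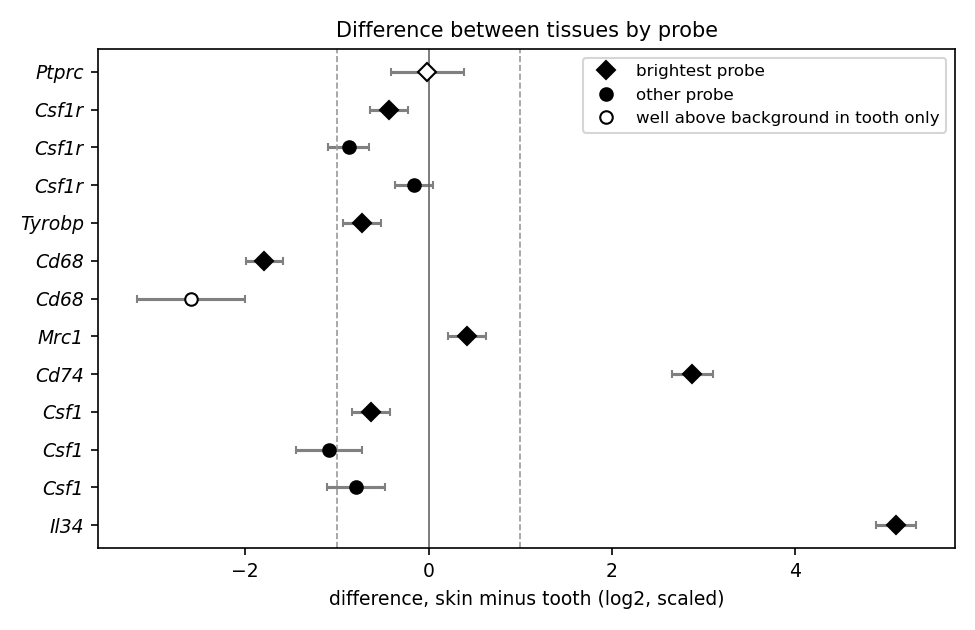
The difference between skin and tooth (log2, scaled) is plotted for each detected probe, with bars of 1 SD from the software's error estimate and dashed lines at 2-fold. The 3 Csf1r probes and the 3 Csf1 probes lie left of 0, both Cd68 probes lie beyond the 2-fold line toward tooth, and Il34 stands at 5.10 toward skin.

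Of the 3 macrophage markers proper, Cd68 and Mrc1 gave a difference and Cd163 did not. Cd68, a lysosomal glycoprotein of macrophages and osteoclasts, was at 2544 intensity units in tooth and 474 in skin by its brightest probe (chr11:69477775-69477834, minus strand). The scaled values were 2.57 and 0.78, a difference of -1.79 ± 0.20 and a 3.46-fold higher value in tooth. Its other probe was dim in skin and gave a value at least 3.67-fold higher in tooth. Of the 17409 genes, 7.61% had a larger difference toward tooth.

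Mrc1, the mannose receptor of tissue macrophages, which lymphatic endothelium also carries, was at 313 intensity units in tooth and 271 in skin. Scaled, it was at -0.45 and -0.03, with a difference of 0.42 ± 0.21 toward skin. Under scaling to the spike-in transcripts this difference became -0.20, on the same side as Cd68, so its direction rests on the scaling. Cd163, the scavenger receptor for haemoglobin and haptoglobin, had 1 probe, and on both arrays the software had replaced its value by a surrogate (4.29 and 4.59 intensity units), so it has neither a level nor a difference.

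Ptprc, which encodes CD45 of all nucleated blood cells, was close to background. Its probe read 34.0 intensity units in tooth, where it was well above background, and 21.8 in skin, where it was not. The scaled values of -3.65 and -3.67 lay near the lowest values that were called well above background (-4.52 in tooth and -3.73 in skin). Ptprc was at least 1.01-fold higher in tooth, a bound that sets no difference between the tissues.

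The genes tied to Langerhans cells and antigen presentation gave 1 large difference and 1 dim probe. Cd207 read 14.2 intensity units in tooth and 5.16 in skin. Neither was well above background, although the tooth value passed the more lenient test of the software and the skin value was a surrogate. No Cd207 signal was therefore detectable in skin with this probe, which does not show that the transcript was absent. Cd74, the invariant chain that escorts MHC class II molecules, was at 68.1 intensity units in tooth and 322 in skin (chr18:60972075-60972132, plus strand). Scaled, it was at -2.65 and 0.22, with a difference of 2.87 ± 0.22, or 7.33-fold higher in skin. Of the 17409 genes, 4.89% had a larger difference toward skin.

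The MHC class II genes that work with Cd74 were read as a list of 8. Of these, 6 were detected, 2 passed 2-fold toward skin (14.2% of all genes did) and 0 toward tooth (15.5%), and the median was 0.72. The 2 were the antigen-presenting chains H2-Eb1 (3.23-fold) and H2-Ab1 (2.35-fold, and 1.32 on the log2 scale by its other probe). H2-Aa, the partner chain of H2-Ab1, was dim on both arrays. The peptide-loading genes H2-DMa (-0.08) and H2-DMb1 (-0.05) were nearly equal in the tissues. Ciita, the master activator of this gene group, differed by 0.60. Under spike-in scaling the list median was 0.10 and 1 gene still passed 2-fold toward skin, where 9.04% of all genes did. The difference of Cd74 was larger than that of each of the 6 class II genes measured.

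Other genes of Langerhans and dendritic cells showed no common direction. Of 11 listed, 9 were detected, and the median was 0.54 (-0.08 under spike-in scaling). Of these, 2 passed 2-fold toward skin (14.2% of all genes did) and 2 toward tooth (15.5%). The count toward skin was 0 under normexp background correction, where 10% of all genes passed. It was 1 under the spike-in shift (9.04% of all genes), the median shift (11.6%) and quantile normalization (13.1%). Flt3, a dendritic precursor receptor, was 2.18-fold higher in skin and the costimulatory gene Cd86 at least 2.37-fold higher. Cd1d1 (4.95-fold) and Id2 (3.85-fold) were higher in tooth. Epcam (0.66) and Runx3 (0.57, but -0.91 by its other probe) were within 2-fold. Epcam, Id2 and Runx3 are also expressed in other cells of these tissues.

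A list of 24 further macrophage genes had a median close to 0 as scaled here. Of the 20 detected, 18 lay within 2-fold, and of all 17409 genes 70.4% did. The median was -0.05, and 2 genes passed 2-fold toward tooth (15.5% of all genes did) and 0 toward skin (14.2%). The complement genes C1qa (0.21), C1qb (0.31) and C1qc (0.15), the cytoskeletal gene Aif1 (-0.08), the chemokine receptor Cx3cr1 (-0.29) and the adhesion receptor Adgre1 (0.52) were among those within 2-fold. Those higher in tooth were Mertk, an efferocytosis receptor (2.96-fold), and Lyz2, lysozyme (2.98-fold). Fcgr1, Spi1, Cd53 and Cybb were dim on both arrays. Under spike-in scaling the median was -0.67 and 5 of the 20 passed 2-fold toward tooth, where 32.4% of all genes did. Under normexp background correction 1 passed, beside 9.6% of all genes.

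Genes of tissue-resident macrophages spread more widely. Of 8 listed, 7 were detected on both arrays, and the median was 1.16. Of these, 4 passed 2-fold toward skin (14.2% of all genes did) and 1 toward tooth (15.5%). The lectin Cd209f was 6.06-fold higher in skin, the hyaluronan receptor Lyve1 4.66-fold, the folate receptor Folr2 2.53-fold and the coagulation factor F13a1 2.24-fold. Lyve1 also marks lymphatic endothelium, and the part of such cells in its value was not tested. The lymphatic genes Prox1 and Flt4 were dim on both arrays, which does not show that their transcripts were absent. Maf, a transcription factor also found outside macrophages, was 5.73-fold higher in tooth. Stab1 (-0.64) and Pf4 (0.78) were within 2-fold, and Timd4 was dim on both arrays. Under spike-in scaling 2 genes passed 2-fold in each direction, with a median of 0.54. Of all genes, 9.04% then passed toward skin and 32.4% toward tooth. Under normexp background correction 2 passed toward skin (10% of all genes did) and 1 toward tooth (9.6%).

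A list of 14 genes held signalling partners of Csf1r and Tyrobp, myeloid transcription factors and an alternative receptor for Il34. Of these, 13 were measured on both arrays and 11 were within 2-fold, where 70.4% of all genes lay, with a median of 0.10. Under spike-in scaling the median was -0.52. Then 2 genes passed 2-fold toward tooth (32.4% of all genes did) and 1 toward skin (9.04%). Within 2-fold as scaled here lay Syk (-0.20), the adaptor Hcst (0.38), the phosphatases Inpp5d (-0.88) and Ptpn6 (0.43) and the myeloid factor Irf8 (-0.19). Ptprz1, an alternative receptor for Il34, differed by 0.26. The exceptions were Cebpa (25.4-fold higher in skin), a myeloid transcription factor that differentiating keratinocytes also express, and Plcg2 (2.92-fold higher in skin).

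**Figure D3:**
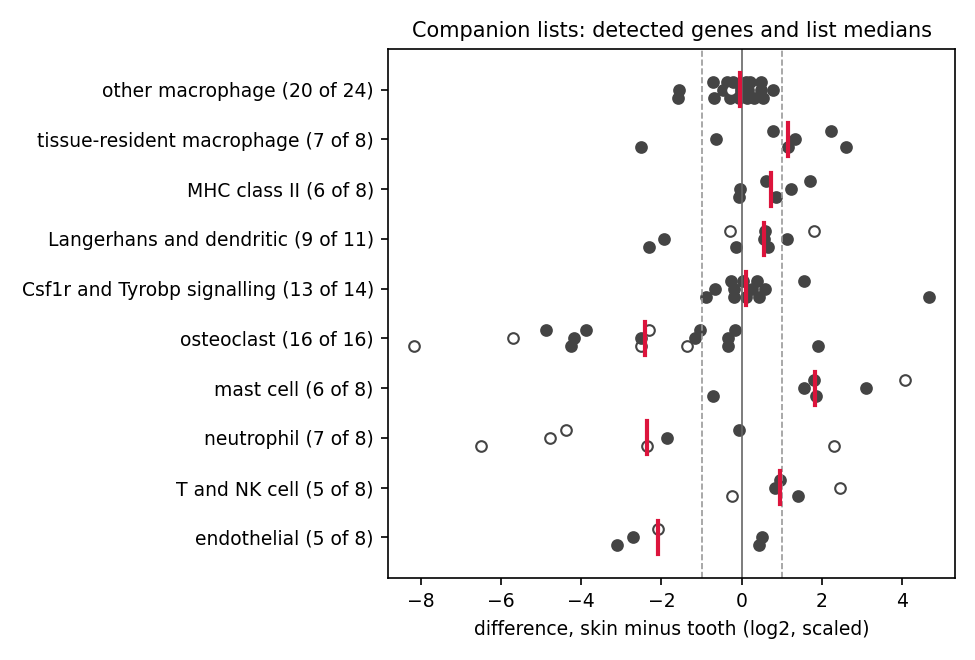
Each point is 1 detected gene, placed by its difference between skin and tooth (log2, scaled). Open points were dim on 1 array, red bars are list medians, dashed lines mark 2-fold, and the number detected of the number listed follows each name. Further macrophage genes cluster around 0, whereas osteoclast genes spread toward tooth and mast cell genes toward skin.

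Genes of other cell types were read in the same way. Of all genes, 14.2% passed 2-fold toward skin and 15.5% toward tooth. All 16 genes of the osteoclast list, which includes Tnfsf11 (RANKL), a ligand that acts on osteoclasts, were detected. Of these, 12 passed 2-fold toward tooth and 1 toward skin, and the median was -2.41. The part of other cells in the values of this list was not tested. With dim values at their bound 9 passed toward tooth (13.3% of all genes did) and the median was -1.10. The bounds of Calcr (1.78-fold), Siglec15 (1.60-fold) and Tnfsf11 (1.24-fold) lie under 2-fold. Under normexp background correction 7 passed toward tooth (9.6% of all genes did). Acp5, the tartrate-resistant phosphatase of osteoclasts, was 14.7-fold higher in tooth, the collagen protease Ctsk 29.6-fold, the fusion gene Dcstamp 18.9-fold and Mmp9 at least 67.8-fold. Their summed signal, in units of each array's 75th percentile, was 323 in tooth and 28.1 in skin, and without Acp5, the brightest, 96.6 and 12.7. Acp5 and Ctsk were detected in skin too. The gene higher in skin was Nfatc1 (3.75-fold), which hair follicle cells also express. Cd68, Csf1r and Tyrobp are expressed by osteoclasts, and the part of osteoclasts in their tooth values was not tested. Tnfrsf11a (RANK) and Oscar were within 2-fold, at -0.17 and -0.34.

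The other lists were summed in the same units, each gene by its brightest probe. These sums add signals of different probes and are dominated by the brightest, so they are given with and without it, and lists are not compared by them. Of 8 neutrophil genes 7 were detected, all but Cxcr2, with sums of 11.5 in tooth and 7.53 in skin (4.33 and 0.670 without Elane). Toward tooth 5 passed 2-fold (15.5% of all genes did), among them Mpo (at least 30.1-fold) and Camp (3.63-fold). With dim values at their bound 4 passed (13.3% of all genes), since Ngp was at least 1.91-fold higher. Toward skin Ly6g passed (at least 4.94-fold), where 14.2% of all genes did. Of 8 mast cell genes 6 were detected, all but Ms4a2 and Fcer1a, with sums of 3.41 and 5.61 (0.967 and 4.11 without Kit). Toward skin 5 passed 2-fold (14.2% of all genes did), among them Cpa3 (8.57-fold) and Cma1 (at least 16.7-fold). Toward tooth 0 did (15.5% of all genes). Under spike-in scaling 4 mast cell genes passed toward skin (9.04% of all genes did) and 1 toward tooth (32.4%).

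Among 8 T and NK cell genes 5 were detected, all but Cd3g, Cd2 and Ncr1, with sums of 9.04 and 18.5 (3.55 and 8.68 without Cd3e). Toward skin 2 of the 5 passed 2-fold (14.2% of all genes did) and toward tooth 0 (15.5%). The count toward skin was 1 under spike-in scaling (9.04% of all genes) and under normexp background correction (10%). Of 4 B cell genes 3 were detected, all but Ms4a1, with sums of 0.701 and 0.605 (0.281 and 0.179 without Cd79a). In each direction 1 passed 2-fold (15.5% of all genes did toward tooth and 14.2% toward skin). Under normexp background correction 0 did (9.6% and 10% of all genes). Of 8 endothelial genes 5 were detected, and Prox1, Flt4 and Stab2 were dim by their brightest probe, although another Stab2 probe was detected with a difference of -2.02. Toward tooth 3 passed 2-fold (15.5% of all genes did) and toward skin 0 (14.2%). Under normexp background correction 2 of 6 detected passed toward tooth (9.6% of all genes did). The endothelial median was then -0.22, in place of -2.08. The endothelial sums were 31.5 in tooth and 38.3 in skin, and 4.09 and 1.35 without Kdr, whose other probe gave -2.19. Of 4 monocyte genes 3 had a named probe and 2 were detected. Toward tooth 1 of the 2 passed 2-fold (15.5% of all genes did) and toward skin 0 (14.2%). It was Plac8 (109.9-fold higher in tooth, and -3.48 on the log2 scale by its other probe). Chil3 was within 2-fold and Ccr2 was dim on both arrays. The monocyte sums were 12.2 in tooth and 0.514 in skin, and 0.526 and 0.407 without Plac8. The part of these cells in the values of Ptprc, Tyrobp, Cd74 and Mrc1, and of monocytes in that of Plac8, was not tested.

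**Figure D4:**
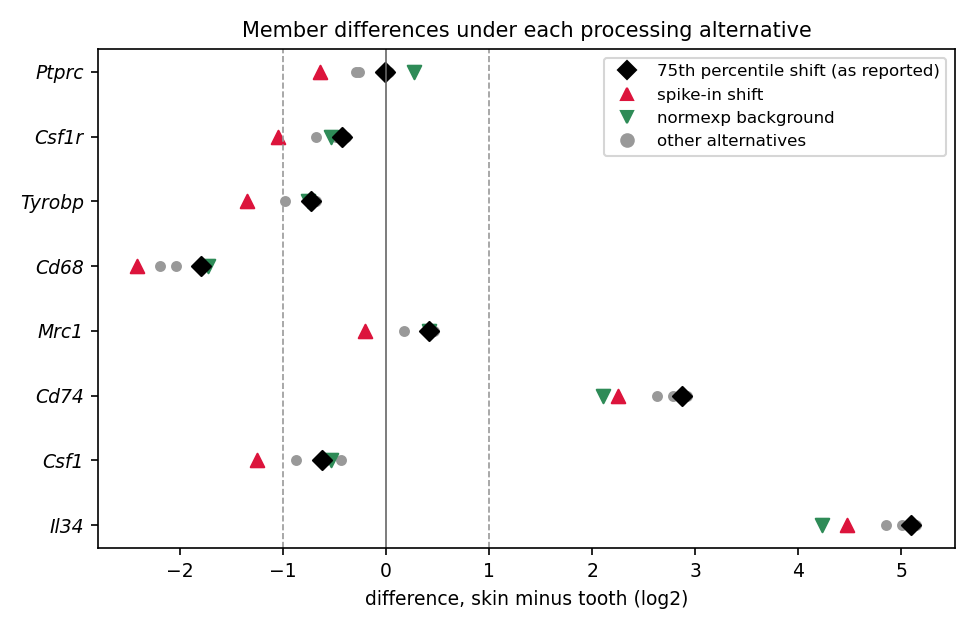
The difference between skin and tooth of the 8 detected members is plotted under the reported 75th percentile shift (diamonds), the spike-in shift (upward triangles), normexp background correction (downward triangles) and the other alternatives (grey). Il34 and Cd74 stay beyond the 2-fold line toward skin and Cd68 toward tooth throughout, whereas Mrc1 and Ptprc have values on both sides of 0.

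The scaling decided how many members passed 2-fold toward tooth. Spike-in transcripts were nearly equal on the arrays before scaling (a median difference of -0.01 over 8 spike-ins), and setting them equal lowered each difference by 0.62. Under this scaling Csf1r (-1.05), Tyrobp (-1.35), Csf1 (-1.25) and Cd68 (-2.41) passed 2-fold toward tooth, 4 members in place of 1, while of all genes 32.4% passed toward tooth and 9.04% toward skin. Il34 (4.47) and Cd74 (2.25) still passed toward skin. Under a median shift 20.1% of all genes passed toward tooth and 11.6% toward skin, and under normexp background correction 9.6% and 10%, with 1 and 2 members passing in both cases.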

How the data were processed

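Total RNA of tooth and skin was measured on 1 single-colour Agilent array each. Per the file headers, the deposited intensity values came from Agilent Feature Extraction (10.7.3.1), which had removed a fitted spatial background and a multiplicative trend and replaced very dim values by surrogates. A percentile shift in GeneSpring was named in the study's methods. A second deposited table gave, as prepared by the authors, the ratio of processed intensity to 1 factor per array (430.7 for tooth, 274.5 for skin), on a linear scale and not centred on genes; its medians were 0.081 and 0.0989. It served as an alternative.

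Control and outlier spots were left out (137 and 146 outliers), spots of a probe were averaged on the log2 scale, and each array's 75th percentile over 55675 probes was subtracted (Python 3.11.15, pandas 2.3.3; limma 3.58.1 for normexp, offset 50). Detection required the well-above-background flag on over 50% of a probe's spots. The brightest probe stood for a gene. For a gene detected on 1 array, the fold was a bound against the lowest signal called well above background on the other array, or against the dim value itself where that was higher. RefSeq (GRCm38.p6) names were matched by accession for 82.1% of named probes. It has another build than the probes' mm9 coordinates and was used for names only. The procedure was tested on simulated data. No test between tissues was possible, and the array number limits the precision. Named were all members and any gene of the companion lists. Members and lists were chosen with earlier results of these data known. Ly6c2 had no named probe. The position of the probes within exons, UTRs or coding sequence was not checked against an annotation.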

Additional observations from a re-analysis of the deposited data

How the results depend on the processing

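The difference of each detected member was recomputed under 11 alternatives (10 for Ptprc, which drops out when only genes measured on both arrays are kept). The count of 2 members at least 2-fold higher in skin was the same in all 11, and the count in tooth was 1 in 10 of them and 4 under the spike-in shift. Other detection rules, keeping only genes measured on both arrays and setting dim values at their bound left each retained member's difference as reported. The mean of all probes can move only genes with several probes. The authors' table holds the same processed intensities under other factors. Agreement under these alternatives is thus no separate check. The median member difference, -0.22 as reported, was -0.85 under the spike-in shift, -0.47 under a median shift and -0.39 under quantile normalization, and -0.43 both with detection by significance above background and with only genes measured on both arrays. It was below 0 in all 11. Over all genes, the counts past 2-fold were 2691 toward tooth and 2466 toward skin as reported, 5639 and 1573 under the spike-in shift, and 1672 and 1743 under normexp background correction. Il34 ranged from 4.23 to 5.14, Cd74 from 2.11 to 2.92 and Cd68 from -2.41 to -1.72, the lower values of Il34 and Cd74 coming from normexp background correction. Csf1r, Tyrobp and Csf1 were below 0 in all 11, and each passed 2-fold under the spike-in shift only. Mrc1 was below 0 under the spike-in shift (-0.20), and Ptprc was above 0 in 3 alternatives, at most 0.27 under normexp correction. The percentile, median and spike-in shifts move each gene alike by construction. Quantile normalization does not: Ptprc was -0.29 under it and -0.01 as reported, and Cd68 -1.77 and -1.79. The cause of the other changes was not tested. Readings near background limit Ptprc, Cd163 and Cd207. No paired analysis was possible because each tissue had 1 array.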
